A study of Mus musculus with 41 samples.

Results

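The genes described here are the 4 Notch receptors of the mouse (Notch1, Notch2, Notch3 and Notch4), 4 of their ligands (Jag1, Jag2, Dll1 and Dll4) and 2 transcriptional targets of the pathway (Hes1 and Hey1). They were taken by gene name from the array annotation, and each gene is read from its probe of highest mean signal. All 10 had a probe that passed the signal filter, out of 20913 genes tested. Their level is given throughout as the log2 ratio of tumor to reference signal, so that 0 is the level of the reference RNA and 1 unit is a doubling. A level compares tumors for 1 probe and does not rank one gene against another.

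Notch receptors are membrane proteins that bind ligands of the Jagged and Delta-like families on neighboring cells. Binding leads to proteolytic release of the receptor's intracellular domain, which enters the nucleus, joins the DNA-binding protein Rbpj and activates genes such as Hes1 and Hey1, which encode transcriptional repressors. In the mammary gland the pathway is known for its part in luminal cell fate, and Notch4 and Dll4 are also known as genes of the vascular endothelium.

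Mammary tumors arose in wild-type female BALB/c mice that carried transplants of Trp53-null mammary epithelium in cleared fat pads. Every tumor therefore shares the loss of Trp53, donor tissue came from 4 mice, and the fat pads were those of the wild-type host. Which cells of a tumor came from the donor or the host was not tested. The recipients received a low fat diet throughout (LFD), a high fat diet throughout (HFD), a high fat diet in puberty followed by the low fat diet (HFD-LFD) or the reverse (LFD-HFD), and tumors were early or late according to onset before or after 1 year. Each of 41 tumors was hybridized on a 2-color array with a reference RNA pooled from mouse cell lines. The 29 tumors of variable morphology, called epithelial here, comprised 8 LFD, 8 HFD, 7 HFD-LFD and 6 LFD-HFD tumors, with 14 early and 15 late, and the 12 spindle cell tumors comprised 3 per regimen, with 3 early and 9 late. There was no normal mammary tissue among these arrays.

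Several facts of the arrays bear on all values. By the labels the tumor RNA carried Cy5, while by the study's methods the reference did, and the ratio is taken here as Cy5 over Cy3, after the labels. Among epithelial arrays the median standard deviation of a probe was 0.649 in Cy5 and 0.319 in Cy3, and Y-linked probes were dimmer in Cy5 on 38 of 41 arrays of these female hosts. The arrays of the spindle cell tumors came from a separate scan session and an older version of the scanner software, so that histology, session and software cannot be told apart. Epithelial tumors 42L4B and 60L formed another session, and 3 HFD tumors (40R4A, 57R and 65R) carry labels in the deposited matrix that differ from those of the scanner files, which were used. LFD and HFD-LFD epithelial tumors shared no slide with another regimen, and within each of these regimens early and late tumors lay on separate slides. There regimen, onset and slide cannot be told apart. In the tumor channel 52.4% to 94.9% of an array's spots stood well above background. Of 12 luminal epithelial markers 1 fell in spindle cell tumors, the transcription factor Elf5, whose mean level was 3.31 in epithelial and 1.68 in spindle cell tumors, and all the markers of this list were well above background on most arrays of each histology.

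The promoters of Notch4 and Dll4 are shown because these were the members that differed between the histologies. RefSeq windows of GRCm38.p6, from 250 bases before to 50 bases after the start of the gene, were matched for 8 of the 10 members, all but Hes1 and Hey1. Short motifs were searched on both strands, TGGGAA, the core of the Rbpj site, and CACNAG, the N box bound by Hes proteins. Capitals mark a match to either motif, and matches to the 2 did not overlap in these windows. The Notch4 window lies on the plus strand at chr17:34564045-34564344 and the Dll4 window on the plus strand at chr2:119325534-119325833.
Notch4: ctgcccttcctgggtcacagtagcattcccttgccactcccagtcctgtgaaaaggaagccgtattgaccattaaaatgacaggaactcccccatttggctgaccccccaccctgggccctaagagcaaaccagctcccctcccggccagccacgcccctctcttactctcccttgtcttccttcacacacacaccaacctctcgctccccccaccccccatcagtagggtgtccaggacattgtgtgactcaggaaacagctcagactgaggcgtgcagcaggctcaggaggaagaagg
Dll4: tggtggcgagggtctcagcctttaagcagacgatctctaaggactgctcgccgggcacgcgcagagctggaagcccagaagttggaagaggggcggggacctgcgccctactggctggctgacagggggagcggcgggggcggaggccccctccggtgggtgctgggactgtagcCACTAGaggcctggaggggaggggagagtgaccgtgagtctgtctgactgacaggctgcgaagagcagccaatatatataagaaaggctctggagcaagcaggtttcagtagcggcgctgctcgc
The Dll4 window held 1 match to CACNAG, 75 bases before the start, and the Notch4 window held neither motif. TGGGAA was found in 0 of the 8 members' windows and in 25.6% of all 32851 windows of this length. CACNAG was found in the windows of 5 members (Notch1, Notch2, Notch3, Dll1 and Dll4) and in 42.5% of all windows.

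**Figure D1:**
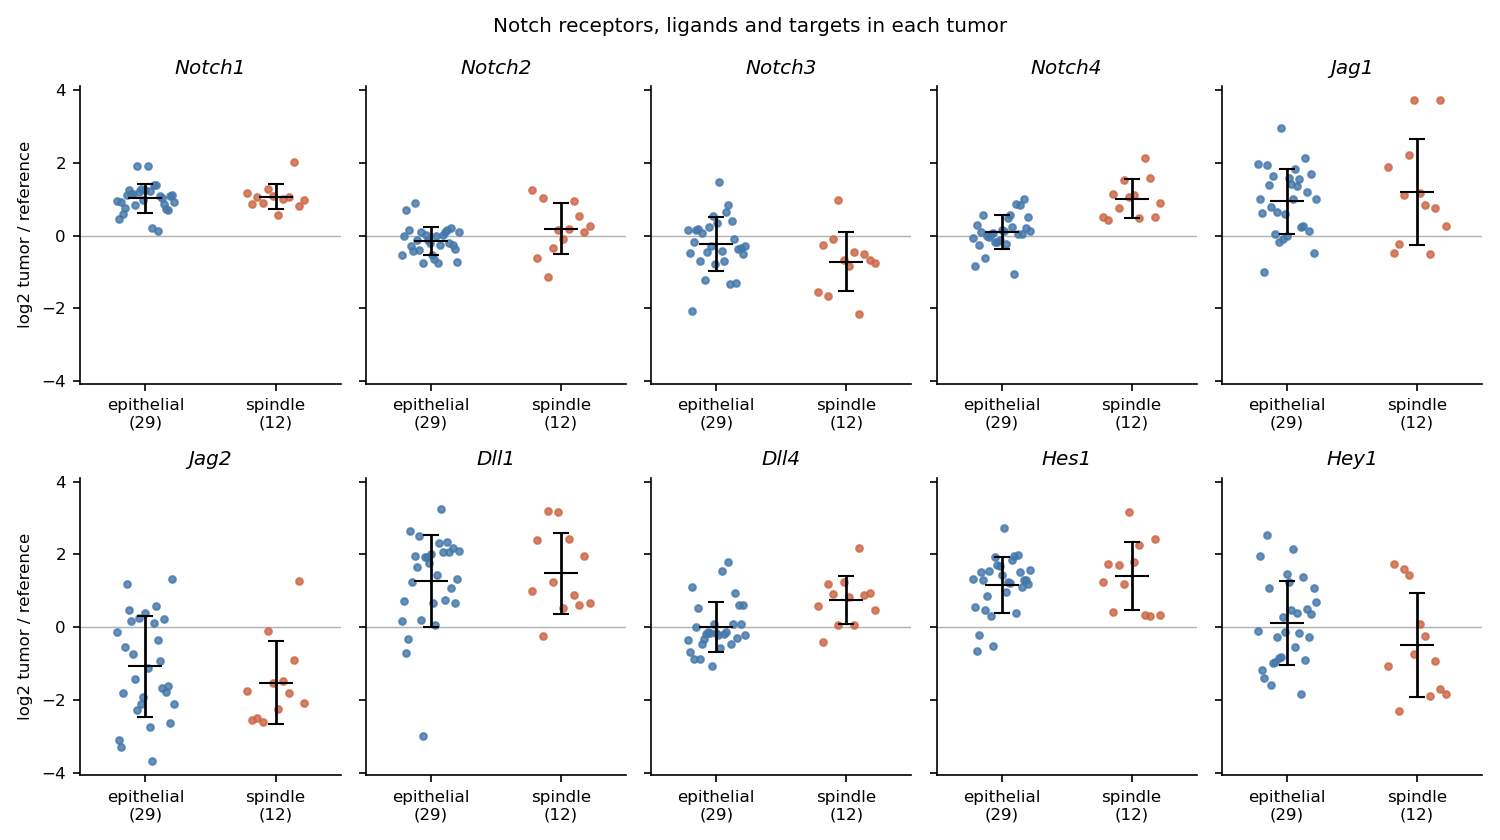
Level of each gene in each tumor, as log2 ratio of tumor to reference, in 29 epithelial and 12 spindle cell tumors, with the mean and standard deviation as black bars (28 epithelial tumors for Notch2 and Notch3). All 12 spindle cell tumors lie above 0 for Notch4, whereas the epithelial tumors center near 0, with 18 of 29 above it.

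The first comparison asked whether the pathway differed between the 2 histologies. Notch4, the receptor known from endothelium, and Dll4, a ligand that acts in sprouting vessels, were higher in spindle cell tumors, by 1.90-fold and 1.68-fold, and the other 8 members did not pass the test. The share of members called higher was 2 of 10, where 7.92% of all genes were higher and 12.2% were lower, and no member was called lower. Among all genes the median difference was -0.07 and among the 10 members it was 0.23. Differences were tested with limma over all genes at an adjusted p of 0.05. Centering each array on its median after normexp moved the all-gene median to 0.17 and the calls to 3157 higher and 277 lower, from 1657 and 2561, and Notch4 and Dll4 stayed higher, by 1.01 and 0.55.

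Of the receptors, Notch4 differed most clearly. It was measured on 1 probe, at chr17:34725120-34725179 of the NCBI37 (mm9) build used by the array annotation, and was well above background on every array. In the spindle cell tumors its level was 0.76, 1.52 and 1.07 in LFD, 1.12, 0.49 and 2.14 in HFD, 0.52, 0.44 and 1.15 in HFD-LFD and 1.60, 0.52 and 0.90 in LFD-HFD tumors. In the 29 epithelial tumors it ran from -1.06 over a median of 0.08 to 0.997. The groups overlapped, but 22 of 29 epithelial tumors lay below the lowest spindle cell tumor and 6 of 12 spindle cell tumors lay above the highest epithelial one. Spindle cell tumors averaged 1.02 ± 0.53 (SD, n = 12) and epithelial tumors 0.10 ± 0.46 (SD, n = 29), which makes a log2 difference of 0.92 (SE 0.17, 95% interval 0.59 to 1.26, limma adjusted p = 0.000108). Without each spindle cell tumor in turn the difference stayed between 0.82 and 0.98.

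Notch1, a receptor of broad expression, was near 1 in both histologies. Its lowest, median and highest values were 0.13, 1.08 and 1.92 among epithelial tumors and 0.57, 1.03 and 2.02 among spindle cell tumors, so the groups overlapped almost fully. The difference was 0.05 (95% interval -0.22 to 0.32, limma adjusted p = 0.83), and its sign turned with normexp and loess in place of the processed signals, at -0.02. Notch2 had a median of -0.16 in epithelial and 0.18 in spindle cell tumors, with 3 of 12 spindle cell tumors above the highest of 28 epithelial ones. Its difference was 0.34 (95% interval -0.01 to 0.69, limma adjusted p = 0.16). Notch2 passed the test in 3 alternatives, the mean over its probes (0.49, adjusted p = 0.0155), centering on the array median (0.83, adjusted p = 0.00163) and the tumor channel alone (0.63, adjusted p = 0.00975). It also passed without spindle cell tumor M18L (adjusted p = 0.0395). Notch3, a receptor known from pericytes and vascular smooth muscle, went the other way, with medians of -0.30 and -0.67 and a difference of -0.49 (95% interval -1.01 to 0.03, limma adjusted p = 0.17). Among spindle cell tumors 1 of 12 exceeded 0 for Notch3, against 11 of 28 epithelial tumors.

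Second probes existed for Notch1, Notch2 and Dll1. The dimmer Notch1 probe was higher in spindle cell tumors by 0.47, where the brighter probe gave 0.05. Over the 41 arrays the 2 probes ran in opposite directions (r = -0.40). The dimmer probe was well above background on 26 of 29 epithelial and 10 of 12 spindle cell arrays, and why the 2 disagreed was not tested. The dimmer Notch2 probe had a difference of 0.67 in place of 0.34, and its r with the brighter probe was 0.40. It was well above background on 19 of 29 epithelial and 6 of 12 spindle cell arrays, which limits the mean over the Notch2 probes. The second Dll1 probe did not pass the signal filter and was well above background on 9 of 29 epithelial and 1 of 12 spindle cell arrays.

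Among the ligands, Dll4 was measured at chr2:119160779-119160838 (mm9) and was well above background on every array. Its level in the spindle cell tumors was 0.91, 0.06 and 1.25 in LFD, 0.82, 0.07 and 2.18 in HFD, 0.57, -0.40 and 1.19 in HFD-LFD and 0.89, 0.94 and 0.48 in LFD-HFD tumors. In epithelial tumors it ran from -1.07 over a median of -0.17 to 1.81. All spindle cell tumors but M128L, 11 of 12, were above 0 and above the epithelial median, against 10 of 29 epithelial tumors above 0, but only 1 exceeded the epithelial range. Spindle cell tumors averaged 0.75 ± 0.67 (SD, n = 12) and epithelial tumors 0.00 ± 0.69 (SD, n = 29), which makes a log2 difference of 0.75 (SE 0.23, 95% interval 0.28 to 1.21, limma adjusted p = 0.0186).

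The Dll4 call was lost in several alternatives. Without spindle cell tumor M63L, the highest for both genes, the difference was 0.62 (limma adjusted p = 0.0559), and slide as a random block gave 0.73 (limma adjusted p = 0.0575). Among late tumors alone it was 0.82 with an adjusted p of 0.0501. The highest epithelial values, 1.81 and 1.55, belonged to 60L and 42L4B, and without these arrays and M86R the difference was 0.89 (adjusted p = 0.00148). The reference channel should hold the same RNA on every array, yet for Dll4 its standard deviation was 0.97 among epithelial arrays, against 0.69 in the tumor channel. In the tumor channel alone, scaled to the 75th percentile of each array, Dll4 was higher in spindle cell tumors by 0.47 (adjusted p = 0.16) and in the reference channel lower by 0.25, whereas Notch4 was higher by 0.63 in the tumor channel (adjusted p = 0.00612) and its reference differed by -0.27.

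Jag1, Jag2 and Dll1 varied widely within each histology and did not separate them. Jag1 ran from -1.01 over 1.01 to 2.96 in epithelial and from -0.49 over 0.98 to 3.74 in spindle cell tumors, and the difference was 0.27 (95% interval -0.46 to 0.996, limma adjusted p = 0.64). The 2 highest spindle cell values of Jag1, 3.73 in M33R and 3.74 in M84R, stood above every epithelial tumor. Jag2 was mostly below the reference, from -3.69 over -1.13 to 1.34 in epithelial and from -2.62 over -1.79 to 1.27 in spindle cell tumors, with a difference of -0.45 (95% interval -1.33 to 0.44, limma adjusted p = 0.50). Only 1 of 12 spindle cell tumors was above 0 for Jag2, against 9 of 29 epithelial tumors. Dll1 was above 0 in 26 of 29 epithelial and 11 of 12 spindle cell tumors, with medians of 1.65 and 1.12. Its difference was 0.21 (95% interval -0.61 to 1.02, limma adjusted p = 0.76), and the sign turned in the tumor channel alone, to -0.17. Dll1 was spotted 10 times per array, and the spots of an array had a median standard deviation of 0.08, against 1.26 between epithelial and 1.11 between spindle cell tumors.

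**Figure D2:**
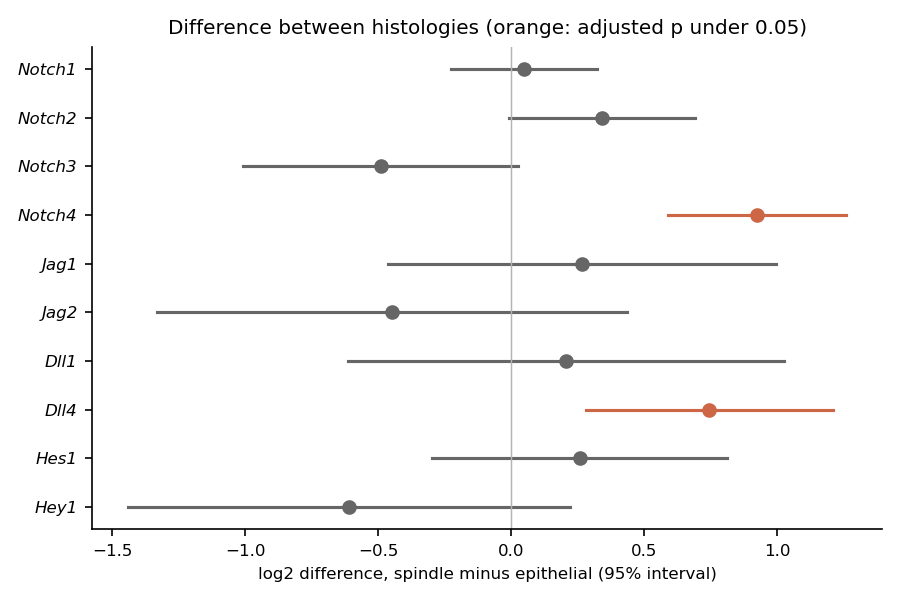
Log2 difference between spindle cell and epithelial tumors for each of the 10 genes, with its 95% interval from limma. Notch4 (0.92) and Dll4 (0.75) are the ones with an adjusted p under 0.05, and the intervals of the other 8 include 0.

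Neither target was called between the histologies. Hes1 was above the reference in all 12 spindle cell tumors and in 26 of 29 epithelial tumors. It ran from -0.64 over 1.29 to 2.74 in epithelial and from 0.31 over 1.47 to 3.18 in spindle cell tumors, with a difference of 0.26 (95% interval -0.30 to 0.81, limma adjusted p = 0.54) that was -0.06 in the tumor channel alone. Hey1 ran from -1.83 over -0.11 to 2.53 in epithelial and from -2.31 over -0.82 to 1.74 in spindle cell tumors, with a difference of -0.61 (95% interval -1.44 to 0.22, limma adjusted p = 0.31). Among late tumors alone the sign of the Hey1 difference turned, to 0.12.

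Markers of other cells moved with histology beside Notch4 and Dll4. Of 15 endothelial markers, 9 were higher in spindle cell tumors and 0 lower, with a median difference of 0.80, among them the receptor Tie1 (1.13), the transcription factor Sox18 (1.13), the adhesion molecule Pecam1 (0.87) and the growth factor receptor Kdr (0.56). Averaged over the 15 markers, the level lay between -1.96 and -0.22 in epithelial tumors and between -1.54 and 1.06 in spindle cell tumors, and none of the 15 was below background on every array of a histology. Spindle cell tumors M32L and M76R stood apart, with endothelial levels of 0.92 and 1.06, against -0.24 or less in the other 10, and levels over 5 adipocyte markers of 1.73 and 3.13, against -3.38 or less. Without them the spindle cell mean of the endothelial markers was -0.82 in place of -0.51, and its difference from epithelial tumors 0.36 in place of 0.66. The fibroblast difference was 0.50 in place of 0.81. Another fit also left out M86R, which did not stand apart in these levels (endothelial -0.96, adipocyte -3.43). In that fit 6 of the 15 endothelial and 0 of the 10 fibroblast markers were higher, and such counts can fall when fewer tumors are compared. There Notch4 was higher by 0.82 (limma adjusted p = 0.00155) and Dll4 by 0.84 (limma adjusted p = 0.019). Of 10 fibroblast markers 4 were higher and 0 lower, and of 8 pericyte markers 1 was higher, the receptor Pdgfrb (0.92). In such bulk RNA fewer cells of a type and less RNA per cell cannot be told apart, and the part of endothelial cells in the Notch4 and Dll4 differences was not tested.

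**Figure D3:**
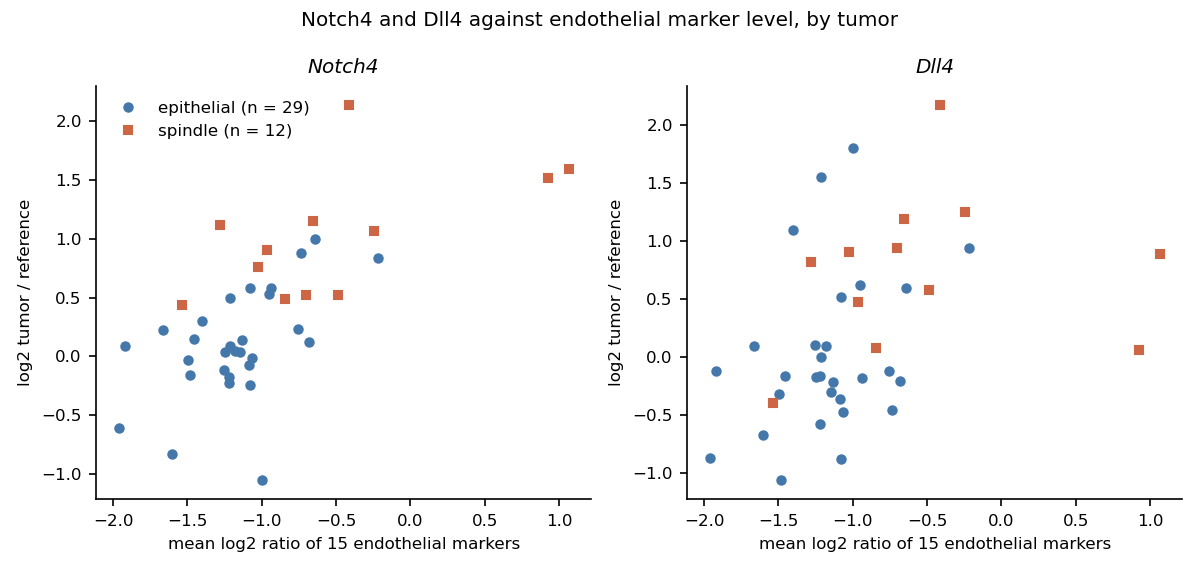
Notch4 (left) and Dll4 (right) level of each tumor against its mean level of 15 endothelial markers, all as log2 ratios to the reference, in 29 epithelial and 12 spindle cell tumors. In epithelial tumors Notch4 rose with the markers (r = 0.53), while for Dll4 r was 0.33.

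Within the epithelial tumors, 40 relations between a member and the mean level of a marker list (endothelial, pericyte, luminal or basal) were computed with permutation tests of 100000 resamples. In 7 of them the adjusted p of Pearson's r was under 0.05, and in 5 that of Spearman's rho was too. Jag2 followed the 8 basal epithelial markers most closely, with r = 0.74 and rho = 0.78 (n = 29, adjusted permutation p = 0.0004 for both, raw p = 1e-05, the smallest these permutations can give), and r = 0.75 without the 2 tumors farthest from the median. Jag1 also rose with the basal markers (r = 0.60, rho = 0.51, adjusted permutation p = 0.00667 and 0.0478, raw p = 0.0005 and 0.00546, r = 0.48 without 2 tumors). Hes1 rose with the luminal markers (r = 0.62, rho = 0.53, adjusted permutation p = 0.0062 and 0.0478, raw p = 0.00031 and 0.00381, r = 0.52 without 2 tumors). The reference signal of Hes1 also varied among these arrays (SD 0.80), and its part in this relation was not tested. Notch4 rose with the pericyte markers (r = 0.60, rho = 0.55, adjusted permutation p = 0.0082 and 0.0384, raw p = 0.00082 and 0.00192, r = 0.43 without 2 tumors) and with the endothelial ones (r = 0.53, rho = 0.50, adjusted permutation p = 0.0229 and 0.0478, raw p = 0.00343 and 0.00598, r = 0.38 without 2 tumors). Within the scan session of 27 epithelial tumors r was 0.74 for Jag2, 0.61 for Jag1, 0.62 for Hes1, 0.50 for Notch4 with the pericyte list and 0.67 with the endothelial list. Dll4 had r = 0.33 and rho = 0.26 with the endothelial markers (adjusted permutation p = 0.24 and 0.38, raw p = 0.0805 and 0.178, r = 0.15 without 2 tumors and 0.40 within the session).

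In the 12 spindle cell tumors 10 relations with the endothelial markers were computed. Notch1 was the one past the threshold, with r = 0.85 and rho = 0.88 (adjusted permutation p = 0.0014 and 0.0028, raw p = 0.00014 and 0.00028, all on the spindle cell session). Without the 2 tumors of most distant marker level, M32L and M76R, r was 0.70. The reference signal of Notch1 had a standard deviation of 1.29 among these arrays, against 1.46 in the tumor channel. For Notch4 r was 0.59 and rho 0.64 (adjusted permutation p = 0.23 and 0.0918, raw p = 0.0454 and 0.0275, r = 0.40 without 2 tumors). Dll4 gave r = 0.14 and rho = 0.34 (adjusted permutation p = 0.74 and 0.40, raw p = 0.66 and 0.28), with r = 0.68 when the 2 tumors with the most distant marker levels were left out.

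Among the members themselves, 1 of 45 pairs passed in epithelial tumors, the ligand Dll1 with the target Hes1 (n = 29, r = 0.70, rho = 0.63, adjusted permutation p = 0.00225 and 0.0157, raw p = 5e-05 and 0.00035, r = 0.52 without 2 tumors, r = 0.70 within the session of 27). By rank of Pearson's r over the epithelial tumors, among 14455 genes with a symbol that were well above background in most of them, the nearest patterns were Pcdh12 (0.81) and Fam167b (0.75) for Notch4, Padi3 (0.91) and Phlda3 (0.90) for Jag2, Sfn (0.71) and Cdkn1a (0.68) for Jag1, Foxi1 (0.72) and Ano1 (0.71) for Hey1, and Trim2 (0.76) and Rapgefl1 (0.74) for Notch3. For Notch2 they were Slc36a2 (0.77) and Yipf1 (0.75), and for Dll1 Zdhhc20 (0.80) and Klhl20 (0.78). These are descriptions over 28 or 29 tumors that share slides and sessions. Trpm1 (0.94) and Akap7 (0.90) were nearest to Notch1, Rps6ka3 (0.83) and Actr1b (0.76) to Dll4 and Sh3rf1 (0.82) and Pir (0.76) to Hes1. The reference signal of these 3 members varied more than that of a usual probe, with standard deviations among epithelial arrays of 0.52 for Notch1, 0.97 for Dll4 and 0.80 for Hes1, against 0.10 to 0.26 for the other 7 members, and the part of that variation in their patterns was not tested.

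Other genes of the pathway were read from a list of 59, of which 54 were tested. In spindle cell tumors 4 of them rose and 4 fell, of which 3 are named here, with a median difference of -0.08, and of all genes 7.92% were higher and 12.2% lower, so that the shares in the list, 4 of 54 each way, lay near or below those of all genes. Of 11 inhibitors and turnover genes, 3 rose, namely Dtx3 of the Deltex family (1.11, adjusted p = 4.12e-05), Numbl (1.04, adjusted p = 0.00073) and Numb (0.41, adjusted p = 0.0316), which encode endocytic adaptors that oppose Notch, and the kinase gene Aak1 fell (-0.56, adjusted p = 0.0384). Of 14 genes for receptor processing and glycosylation, Ncstn, a subunit of the gamma-secretase that cuts the receptor, rose (1.03, adjusted p = 0.023). Of 11 genes of the nuclear complex, 0 rose, and the co-repressor gene Tle1 fell (-0.67, adjusted p = 0.00266). Of 8 other target genes, a list of Hes and Hey genes with Dtx1, Nrarp and Bhlhe40, Hes2 fell (-0.73, adjusted p = 0.00582). Dtx1 and Nrarp also belonged to the inhibitors and turnover genes. The Hes2 probe was well above background on 26 of 29 epithelial but on 6 of 12 spindle cell arrays, so its difference lies partly near the floor. None of 7 genes for ligand endocytosis and none of 5 further ligands passed, and all these values are from limma with adjustment over all genes.

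The second comparison asked whether the members differed among the 4 diet regimens. Over the epithelial tumors 0 of 10 members passed limma's F-test at an adjusted p of 0.10, where 0.473% of all genes did, and 1 member (Hes1) had an unadjusted p under 0.05. Hes1 was lowest in HFD-LFD tumors, with values of 0.55, 1.29, 0.46, -0.64, -0.22, 1.51 and 0.31 and a mean of 0.46 ± 0.76 (SD, n = 7). The mean was 1.42 ± 0.95 (SD, n = 8) in LFD, from -0.53 over 1.61 to 2.74, 1.39 ± 0.55 (SD, n = 8) in HFD, from 0.39 over 1.39 to 1.97, and 1.29 ± 0.16 (SD, n = 6) in LFD-HFD tumors, from 1.11 over 1.29 to 1.56. The groups overlapped. Against LFD the HFD-LFD difference was -0.95 (95% interval -1.67 to -0.24), which did not pass (limma F-test over the 4 regimens adjusted p = 0.36, pairwise adjusted p = 0.22). HFD-LFD and LFD tumors shared no slide, so for every member diet and slide cannot be told apart between them.

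Notch1 was highest in LFD tumors, at 1.35 ± 0.36 (SD, n = 8), against 0.92 ± 0.50 (SD, n = 8) in HFD, 0.85 ± 0.28 (SD, n = 7) in HFD-LFD and 0.92 ± 0.17 (SD, n = 6) in LFD-HFD tumors, and did not pass (limma adjusted p = 0.39). The lowest Notch1 values, 0.13 and 0.20, came from 60L and 42L4B, and without them the HFD mean was 1.17 ± 0.21 (SD, n = 6). For HFD-LFD against LFD tumors, where limma called 1.25% of all genes, the Notch1 difference was -0.51 (adjusted p = 0.24). It passed the threshold of 0.10 in 2 of 11 alternatives, without 42L4B, 60L and M86R (-0.51, adjusted p = 0.0935, with 3.8% of all genes called) and with centering on the array median (-0.58, adjusted p = 0.0801, with 8.47% of all genes called), and its adjusted p was 0.23 to 0.57 in the others. The same 2 arrays held the highest Dll4 values of the HFD group, whose mean was 0.38 ± 0.93 (SD, n = 8) with them and -0.05 ± 0.54 (SD, n = 6) without them, against -0.30 ± 0.35 (SD, n = 8) in LFD tumors. Notch2 was highest in HFD-LFD tumors, at 0.16 ± 0.49 (SD, n = 7) against -0.34 ± 0.27 (SD, n = 8) in LFD tumors (limma pairwise adjusted p = 0.25). The remaining members had adjusted p-values of the F-test from 0.58 to 0.99. Notch4 showed an unequal spread, with a standard deviation of 0.13 among LFD tumors and of 0.40 to 0.64 in the other regimens.

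**Figure D4:**
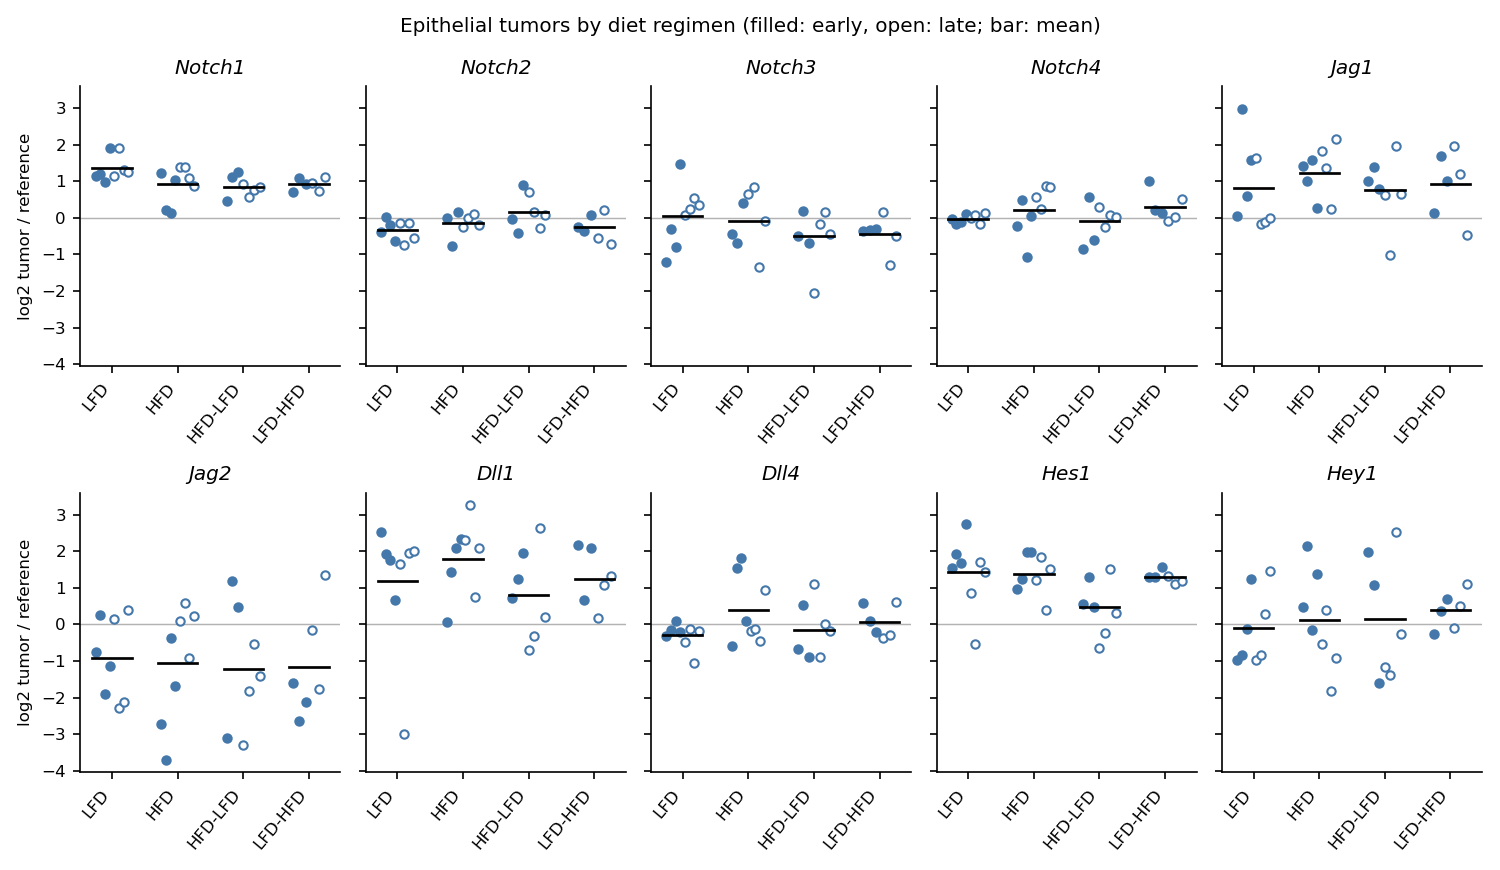
Level of each gene in the epithelial tumors by diet regimen, as log2 ratio of tumor to reference, with filled points for early and open points for late tumors and bars for the regimen means. The regimens overlap for every gene, and the largest range of means is that of Dll1 (0.97), from 0.82 in HFD-LFD to 1.79 in HFD tumors.

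The windows of exposure were compared next. In all 41 tumors, pubertal HFD against pubertal LFD gave 0 of 10 members past an adjusted p of 0.10 by limma and 0 by the SAM statistic, where limma called 0.00956% of all genes, and Notch1 and Notch2 had an unadjusted p under 0.05. In epithelial tumors Notch2 was 0.01 ± 0.42 (SD, n = 14) with pubertal HFD and -0.31 ± 0.30 (SD, n = 14) with pubertal LFD, a difference of 0.32 (95% interval 0.03 to 0.62, limma adjusted p = 0.46). It was the member with an unadjusted p under 0.05 among the 10, of which 0 were called, as were 0% of all genes (2066 genes at an unadjusted p under 0.05). For adult HFD against adult LFD in epithelial tumors, 0 of 10 members were called by limma and 0 had an unadjusted p under 0.05, and 0% of all genes were called (837 at an unadjusted p under 0.05). The nearest were Dll4, with a difference of 0.48 (95% interval -0.01 to 0.96), and Notch4, with 0.31 (95% interval -0.03 to 0.66), both with an adjusted p of 0.95. Under all these comparisons the intervals of Jag2 and Dll1 were wide, for example from -1.13 to 0.91 for Jag2 with pubertal HFD in epithelial tumors.

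In spindle cell tumors, with 3 per regimen, 0 of 10 members passed the F-test by limma, 0 had an unadjusted p under 0.05, and 0% of all genes were called (782 at an unadjusted p under 0.05). Jag1 was 1.11, 2.21 and 3.73 in LFD, 1.18, 0.85 and -0.49 in HFD, 1.88, -0.49 and -0.22 in HFD-LFD and 0.76, 3.74 and 0.25 in LFD-HFD tumors. The regimens overlapped, with the exception that 2 of 3 LFD tumors lay above all HFD and HFD-LFD tumors. Whether pubertal HFD acted differently in the histologies was tested as an interaction, in which limma called 0 of 10 members at an adjusted p of 0.10 and 0.445% of all genes. The largest such difference was that of Jag1, the member with an unadjusted p under 0.05, at -1.67 (95% interval -3.05 to -0.29, adjusted p = 0.30), with means in spindle cell tumors of 0.45 ± 0.998 (SD, n = 6) with and 1.97 ± 1.51 (SD, n = 6) without pubertal HFD, against 1.02 ± 0.81 (SD, n = 15) and 0.86 ± 1.01 (SD, n = 14) in epithelial tumors. Of the 54 other pathway genes tested, 1 was called by limma in that interaction, Mfap2, a microfibril protein that can bind Jag1 (-1.67, adjusted p = 0.0448).

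The last comparison set early against late occurring tumors. Among epithelial tumors 0 of 10 members were called by limma at an adjusted p of 0.10 and 0 by the SAM statistic, where limma called 0.143% of all genes, and Hes1 was the member with an unadjusted p under 0.05. Hes1 ran from 0.46 over 1.42 to 2.74 in 14 early and from -0.64 over 1.18 to 1.83 in 15 late epithelial tumors. The means were 1.46 ± 0.60 (SD, n = 14) and 0.87 ± 0.81 (SD, n = 15), a difference of 0.60 (95% interval 0.07 to 1.12, limma adjusted p = 0.32), and the ranges overlapped over most of their length. The 3 tumors below 0 were all late. The variation of the Hes1 reference signal given above bears on this comparison too. In the LFD and HFD-LFD regimens early and late tumors lay on separate slides, so onset and slide cannot be told apart there. Jag2 differed by -0.65 (95% interval -1.63 to 0.34), Dll1 by 0.52 (95% interval -0.39 to 1.43) and Hey1 by 0.50 (95% interval -0.33 to 1.34), with limma adjusted p-values of 0.58, 0.63 and 0.61.

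Among spindle cell tumors 0 of 10 members were called by limma, as were 0% of all genes (425 at an unadjusted p under 0.05), and Hey1 was the member with an unadjusted p under 0.05. Hey1 was -2.31, -1.70 and -1.84 in the 3 early tumors and ran from -1.88 over -0.24 to 1.74 in the 9 late tumors. The early tumors were M129L of HFD-LFD and M84R and M86R of LFD-HFD, and no LFD or HFD spindle cell tumor was early. Onset and regimen therefore cannot be fully told apart among spindle cell tumors, which also bears on the interaction of onset and histology. All late tumors except M63L lay above the early ones. The difference was -1.95 (95% interval -3.50 to -0.41, limma adjusted p = 1). In the interaction of onset and histology limma called 0 of 10 members and 0.00478% of all genes, and the value for Hey1, the member with an unadjusted p under 0.05, was -2.46 (95% interval -4.18 to -0.73, limma adjusted p = 0.9999).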

How the data were processed

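RNA of 41 tumors was measured on 2-color Agilent 4x44K arrays. The authors deposited the scanner output of each array, with intensity values per spot that Agilent Feature Extraction had background-subtracted and dye-normalized (version 11.0.1.1 for 29 epithelial arrays and 10.5.1.1 for 12 spindle cell arrays per the file headers, 8.5.1.1 in the submitters' processing notes), and a matrix of log2 ratios that the authors had lowess normalized, filtered and imputed. From the processed signals the log2 ratio of Cy5 over Cy3 was taken, control spots and outlier spots (1.19% of gene values) were left out, and spots of a probe were averaged. Probes were kept where the processed signals of Cy5 and Cy3 exceeded 10 on 80% of arrays or more (27307 of 39429), and a gene was read from its probe of highest mean signal. Of the 20913 genes, 15144 had a symbol in the RefSeq table.

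Groups came from the labels, with the label of variable morphology read as epithelial. Nothing in the labels tells whether tumors with 1 number (3 pairs) came from 1 mouse. Differences were tested with limma 3.58.1 in R 4.3.3 (lmFit, eBayes) over all genes with Benjamini-Hochberg adjustment, at 0.05 for histology and 0.10 otherwise, with 95% intervals from the same fits and a SAM statistic (100 permutations) as another test. The fit was checked on simulated data. All 10 members were tested in each comparison, and values of all 10 are given for the histologies. In the diet, onset and interaction comparisons values of only some members are given. Up to 5 called genes in each direction of the other pathway genes were named, with the 2 genes most like each member. The values of 1 called pathway gene are not reported here. The members, lists and tests were chosen with earlier results of these data known. Alternatives changed the background correction, centering, filter, outlier spots, probe choice, slide, labels and tumors, or used the authors' matrix. The number of arrays limits the precision.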

Additional observations from a re-analysis of the deposited data

Results flagged for a closer look

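In the 5 groups of 4 tumors with the same histology, regimen and onset, 48 sets of 4 values of a member were searched for a tumor that stood far from the other 3, and 2 were found, where chance gives about 1 in 20. Both lay among the late epithelial LFD tumors. Jag1 was 1.64 in tumor 11L, against -0.18 to -0.01 in the other 3. Dll1 was -3.00 in tumor 13L, against 1.65 to 2.02 in the other 3, and this was the lowest Dll1 value of all 41 tumors. No difference of a member between the histologies in its response to pubertal HFD or in its onset difference passed the test by limma.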

How the results depend on the processing

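For spindle cell against epithelial tumors the number of members called was 2 in the main analysis and in the authors' matrix, and 1 (Notch4) among late tumors alone and with slide as a random block. Leaving out each spindle cell tumor in turn, an alternative chosen after seeing the data, gave between 1 and 3 members, with 1 (Notch4) without HFD late replicate 3 (M63L) and 3 (with Notch2) without LFD late replicate 1 (M18L). The tumor channel alone, also chosen afterwards, called Notch4 and Notch2 and not Dll4, where it called 1831 of all 20913 genes higher and 2480 lower. Shares of all genes are not given for the other histology alternatives in this paragraph, so their counts show only which members were called. Notch4 passed limma's threshold in every alternative run, with differences of 0.63 to 1.01. In the diet, onset and interaction comparisons 0 members were called under each alternative run, except Notch1 in the pairwise contrast of HFD-LFD with LFD epithelial tumors, which passed without 42L4B, 60L and M86R (-0.51) and with centering on the array median (-0.58). The second probes of Notch1, Notch2 and Dll1 were dimmer than the chosen ones, and those of Notch2 and Dll1 were often not well above background. The 2 Notch1 probes disagreed, for a reason that was not tested. No paired analysis was possible because a replicate number here only names a tumor within its group.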
